A study of Mus musculus with 4 samples.

Results

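Apoptotic cells are cleared by phagocytes through receptors that recognise phosphatidylserine on the dying cell, a process called efferocytosis. The expression of 9 genes of this system was followed through the cell types of the mouse aortic arch: the TAM receptor tyrosine kinases Mertk, Axl and Tyro3, the bridging molecules Gas6, Pros1 and Mfge8, the do-not-eat-me pair Cd47 and Sirpa, and the endocytic receptor Lrp1. The members were taken by gene symbol, and all 9 were found among the 31053 genes of the count tables.

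The aortic arches, with their main branches and perivascular tissue, came from male mice that were 3 months old at the start. All mice carried a floxed Nrf2 gene (Nfe2l2). The genotype labelled Nrf2Cdh5Lox served as the control, and the genotype labelled Nrf2Cdh5tKO had Cdh5-Cre, which removes the exon needed for DNA binding. Cdh5-Cre is active in endothelium and in a proportion of haematopoietic cells, so the model is specific to neither. Control (CTR) mice received saline and a standard diet, and atherosclerotic (HFD) mice received a further agent, not reported here, in place of saline and a high fat diet for 21 weeks, so that diet and agent cannot be told apart and a diet ratio is the ratio of both together. Arches of 4 mice (CTR) or 3 mice (HFD) were pooled, viable cells were sorted, and 1 droplet library was made for each condition: Lox_CTR, KO_CTR, Lox_HFD and KO_HFD. No condition has a replicate library. Differences between conditions are therefore given as ratios of 2 libraries with counting intervals and no test, and differences between cell types were tested over the 4 libraries.

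The libraries held between 1160 barcodes (Lox_HFD) and 8512 barcodes (Lox_CTR), and 14148 of 15599 cells were kept, with medians between 9200.5 and 14152.5 UMIs (unique molecules) per cell. Library pairs shared between 2 and 10 barcodes. The gates, built from marker genes that include no member, took 1176 macrophages, 7614 fibroblasts and 2161 smooth muscle cells. Smaller gates held 159 monocytes, 93 dendritic cells, 161 endothelial cells, 693 T cells and 194 B cells. Levels are given as CPM, the UMIs of a gene per 1000000 UMIs of all genes in the cells of a gate. The 10 macrophage markers summed to between 23053.8 and 24357.4 CPM in the macrophage gate and to at most 340.5 in the fibroblast and smooth muscle gates. The 8 fibroblast markers summed to between 25674.5 and 28358.8 CPM in fibroblasts and between 2436.1 and 3770.3 in the smooth muscle gate. In the macrophage gate they summed to between 280.8 and 678.2. The part of the fibroblast markers in the smooth muscle levels of the members was not tested. In endothelial-gated cells, where Cdh5 stood between 901 and 1105 CPM, Nfe2l2 was at 190 in Lox_CTR, 388 in KO_CTR, 170 in Lox_HFD and 368 in KO_HFD, higher under the KO label in both diets. In macrophage-gated cells it was at 452, 482, 470 and 427 in the same order. The counting intervals of the labels overlapped there in both diets, at 435 to 470 (Lox_CTR) and 455 to 511 (KO_CTR). Under HFD they were 416 to 528 (Lox_HFD) and 398 to 457 (KO_HFD), so no direction is read. The counts are per gene and do not show which exon a molecule came from, so they do not check the deletion, and the libraries are named by their labels throughout.

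Efferocytosis works through pairs. Gas6 and protein S (Pros1) bind phosphatidylserine with their Gla domains and the TAM receptors with their other end, with protein S acting through Mertk and Tyro3 and Gas6 through all of them. Mfge8 links phosphatidylserine to alpha-v integrins, Lrp1 takes up targets marked by calreticulin, and Cd47 on the target restrains the phagocyte through Sirpa. In atherosclerotic arteries this clearance is known for limiting the necrotic core of the plaque, and Mertk is its best known macrophage receptor.

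Because the study turns on Nrf2, the promoters of the members were read for the core of the antioxidant response element, TGACNNNGC, on both strands. RefSeq windows (GRCm38.p6) from 250 bases before to 50 bases after the start were found for 8 of the 9 genes, Sirpa being the other, and Cd47 had 2 overlapping windows. The motif was present in 1 of the 9 member windows and in 12.4% of all 32851 windows. That window was the Lrp1 promoter, where the match began 160 bases before the start, on the strand opposite to that of the gene. The 250 bases before the start are shown 5′ to 3′ on the gene's strand. They are given for Lrp1, with the match in capitals, and for Mertk and Axl, the TAM receptors whose levels separated macrophages from fibroblasts.
Lrp1, chr10:127621149-127621398, reverse strand: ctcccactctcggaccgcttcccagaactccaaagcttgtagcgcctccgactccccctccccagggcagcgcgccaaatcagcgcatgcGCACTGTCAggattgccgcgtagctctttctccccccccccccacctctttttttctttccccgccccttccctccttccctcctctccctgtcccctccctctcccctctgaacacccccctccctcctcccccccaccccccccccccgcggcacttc
Mertk, chr2:128698665-128698914, forward strand: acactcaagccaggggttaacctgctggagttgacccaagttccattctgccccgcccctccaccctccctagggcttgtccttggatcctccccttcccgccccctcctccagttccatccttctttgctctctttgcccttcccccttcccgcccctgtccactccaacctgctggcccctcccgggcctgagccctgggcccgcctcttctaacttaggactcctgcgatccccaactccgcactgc
Axl, chr7:25788734-25788983, reverse strand: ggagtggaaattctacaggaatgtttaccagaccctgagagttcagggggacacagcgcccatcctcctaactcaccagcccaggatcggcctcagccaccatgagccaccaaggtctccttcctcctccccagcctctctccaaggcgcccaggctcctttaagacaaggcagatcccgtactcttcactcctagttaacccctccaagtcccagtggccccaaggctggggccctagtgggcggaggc
The Mertk and Axl windows hold no match to these letters. The Mertk gene spans chr2:128698956-128802894 on the forward strand, Axl chr7:25757273-25788705 and Lrp1 chr10:127538161-127621148, both on the reverse strand (GRCm38). For Mertk and Axl the RefSeq start of the window lies upstream of these GENCODE spans.

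Mertk was highest in the macrophage gate and almost absent from fibroblasts. Macrophage-gated cells held 72.2 CPM in Lox_CTR, 99.9 in KO_CTR, 154 in Lox_HFD and 109 in KO_HFD. Fibroblasts held 2.73, 2.33, 4.89 and 3.62 in the same order. The lowest macrophage library thus stood above the highest fibroblast library. The difference was 32.1-fold (log2 5.00, SE 0.18, adjusted p = 8.21e-21 in edgeR's quasi-likelihood test). Smooth muscle cells were the second site of Mertk. They held 43.1, 41.3, 72.1 and 41.7 CPM, below the macrophages of the same library in 4 of 4 libraries (2.19-fold, adjusted p = 1.51e-07) and 14.6-fold above fibroblasts (adjusted p = 5.83e-18). The 10 macrophage markers summed to 87.6, 210, 153 and 341 CPM in the smooth muscle gate of these libraries in the same order, and their part in the Mertk level there was not tested. Being the larger population, smooth muscle held 47.1% of all Mertk UMIs and macrophages 33.1%. Endothelial cells followed with 36.1 ± 21.7 CPM (SD, n = 4), a range that overlapped with smooth muscle. Monocytes held 1 UMI of Mertk in all libraries and dendritic cells 0 UMIs. Macrophages of a cavity type, gated apart by Lyz1, Retnla, Fn1, Ear2 and Lpl, also held little Mertk. Their level was 10.1 CPM in Lox_CTR, 4.81 in KO_CTR, 9.28 in Lox_HFD and 16.8 in KO_HFD, below smooth muscle in each library. The KO_CTR and Lox_HFD values rest on 11 and 8 cells.

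Axl was distributed the other way round. Fibroblasts held 296, 317, 355 and 286 CPM in Lox_CTR, KO_CTR, Lox_HFD and KO_HFD, and macrophages 59.3, 77.6, 65.2 and 84.4. The ranges were apart, and fibroblasts were higher in 4 of 4 libraries, by 4.45-fold (macrophage minus fibroblast log2 -2.15, SE 0.28, adjusted p = 2.43e-07). Smooth muscle lay between them, with 116, 131, 130 and 106 CPM, 2.67-fold below fibroblasts (adjusted p = 7.93e-05). Its excess over macrophages was 1.66-fold and near the threshold (adjusted p = 0.0249). That call was lost with DESeq2 (adjusted p = 0.149) and without Lox_CTR (0.0517), KO_CTR (0.145) or Lox_HFD (0.0558). Of all Axl UMIs, 82.6% lay in fibroblasts and 1.99% in macrophages.

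Tyro3 was hardly detected. The macrophage, monocyte and dendritic cell gates held 0 UMIs in every library. For macrophages this is 0 of 1176 cells, which allows a share of cells with a UMI of up to 0.255%. Smooth muscle cells held 4.07, 6.16, 5.15 and 3.0 CPM and fibroblasts 3.19, 3.55, 2.22 and 1.31, which was too low for the filter of the test. Smooth muscle was above fibroblasts in 4 of 4 libraries, from 136 and 293 UMIs. By mean CPM the order of the TAM receptors was Mertk, Axl, Tyro3 in the whole macrophage gate and Axl first in fibroblasts and smooth muscle. Each molecule gives 1 UMI in this 3′ assay, so these values are not scaled by gene length, but capture can differ between genes.

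**Figure D1:**
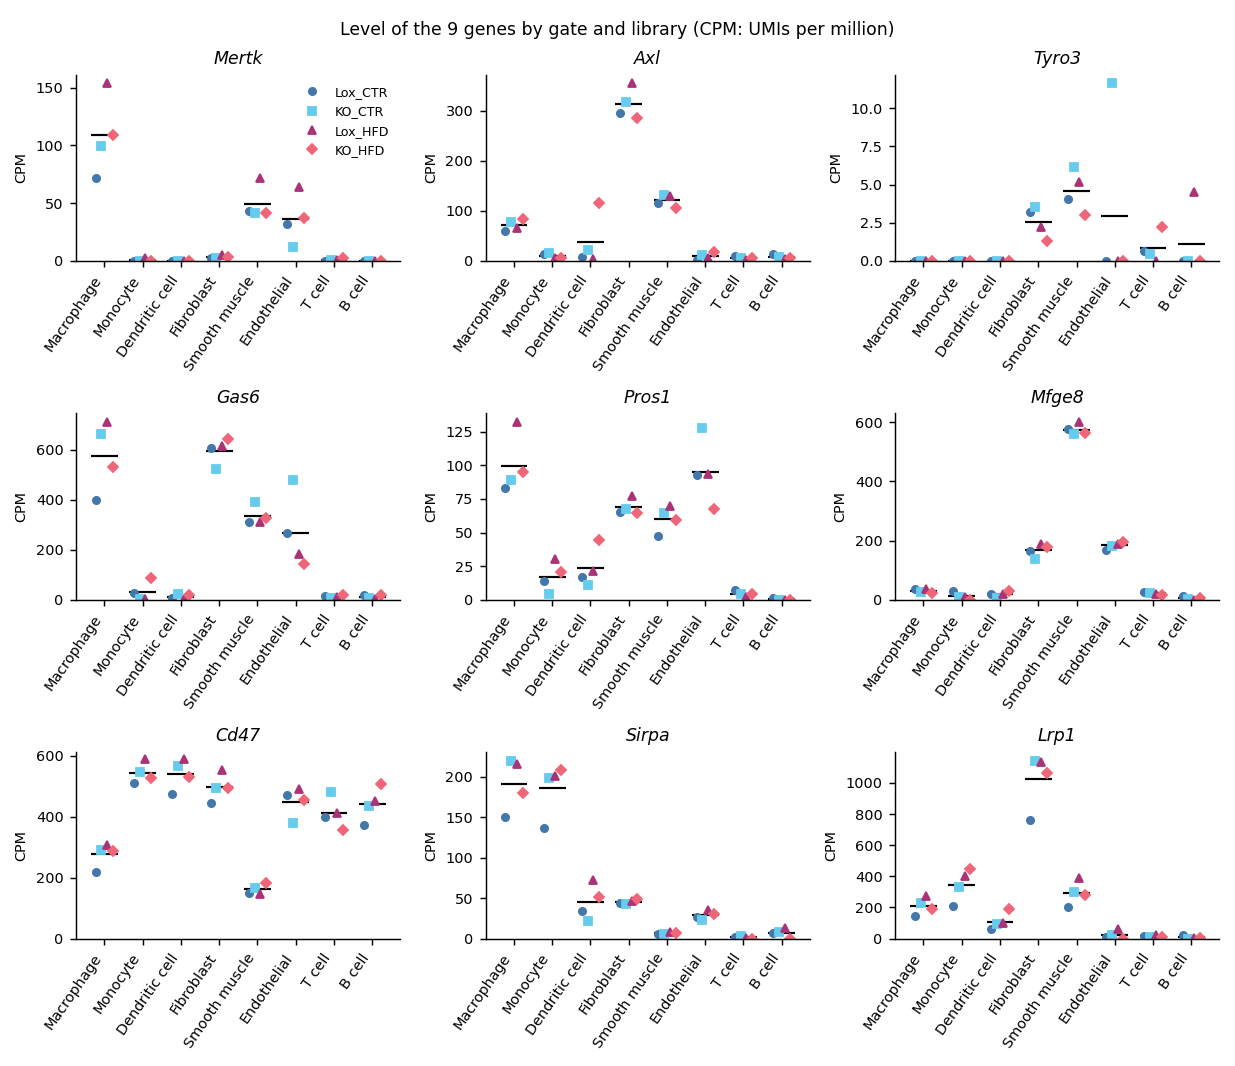
Levels of the 9 genes in CPM (vertical axes, linear, each from 0) in 8 gates; each point is 1 library and the black line is the mean of the 4 libraries. Mertk is highest in macrophages, Sirpa in macrophages and monocytes, Axl and Lrp1 in fibroblasts and Mfge8 in smooth muscle, with Mertk at 154 CPM in the highest macrophage library and at most 4.89 in fibroblasts.

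Gas6, the ligand of the TAM receptors, was high both in the stroma and in macrophages. Fibroblasts held 608, 522, 614 and 642 CPM and macrophages 400.4, 665, 710 and 529.7 in Lox_CTR, KO_CTR, Lox_HFD and KO_HFD. The ranges overlapped, with macrophages higher in 2 of 4 libraries, and the difference was log2 -0.08 (95% interval -0.68 to 0.53, adjusted p = 0.843). Smooth muscle held 310, 389, 310 and 328 CPM, less than both. It stood 1.75-fold below macrophages (adjusted p = 0.0243) and 1.84-fold below fibroblasts (adjusted p = 0.0209). Both calls were lost with DESeq2 (adjusted p = 0.11 each), with Leiden clusters (0.106 and 0.189), without Lox_CTR (0.0784 and 0.143) and without Lox_HFD (0.0999 and 0.0641), and the first also without KO_HFD (0.0552). Endothelial cells held 268 ± 151 CPM (SD, n = 4), and monocytes, dendritic, T and B cells no more than 29.9 on average.

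Of the members, Pros1 varied least between macrophages, endothelial cells, fibroblasts and smooth muscle. In the other leukocytes it was seen less often. A UMI was found in 47.6% of macrophages, 28.0% of dendritic cells, 12.6% of monocytes, 4.76% of T cells and 0.515% of B cells. Macrophages held 83.1, 88.8, 132 and 95 CPM, endothelial cells 92.6, 128, 93.6 and 67.4, fibroblasts 65.6, 67.9, 77.4 and 64.4, and smooth muscle 47.7, 64.2, 69.5 and 59.0. Macrophages were higher than fibroblasts in 4 of 4 libraries, by 1.41-fold (log2 0.50, SE 0.15, adjusted p = 0.00399), a call that was lost without KO_HFD (adjusted p = 0.0539). They were 1.66-fold above smooth muscle (adjusted p = 0.00011). Between fibroblasts and smooth muscle the difference was log2 0.24 (95% interval -0.06 to 0.53, adjusted p = 0.204).

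Mfge8, the bridge to integrins, had its highest level in smooth muscle. Its level there was 578, 560, 600.1 and 563 CPM, a spread of 18.2 (SD, n = 4). Endothelial cells (184 ± 11.2) and fibroblasts (168 ± 21) overlapped with each other below it. Macrophages held 35.2, 26.6, 35.1 and 23.2. Smooth muscle exceeded fibroblasts 3.36-fold (adjusted p = 9.23e-10) and macrophages 19-fold (adjusted p = 3.96e-18). Of all Mfge8 UMIs, 48.5% lay in smooth muscle and 43.2% in fibroblasts, the larger population. T cells held 26.0, 23.9, 18.2 and 17.6 CPM, below the macrophages in each library.

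Sirpa, the inhibitory receptor of the phagocyte, was highest in macrophages and monocytes among the 8 gates compared. Outside these gates, the neutrophil Leiden cluster of 145 cells held 126 CPM, and cavity-type macrophages held 4.94% of all Sirpa UMIs. Macrophages held 151, 220, 216 and 180 CPM and monocytes 137, 199, 201 and 209, which overlapped. Fibroblasts held 45.7 ± 2.59 (SD, n = 4) and smooth muscle 6.59 ± 0.811. The macrophage level was 4.14-fold above fibroblasts (adjusted p = 5.18e-16) and 29.2-fold above smooth muscle (adjusted p = 4.44e-23), higher in 4 of 4 libraries in both. Sirpa belongs to a multigene family whose members can share reads, so its counts are uncertain to that extent.

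Cd47, its ligand, was found in all gates and was lowest where the muscle markers were. The mean was 543 in monocytes, 539 in dendritic cells, 496 in fibroblasts, 449 in endothelial cells, 441 in B cells and 412 in T cells, and each of these overlapped with its neighbour. Macrophages followed with 219, 292, 306 and 286 CPM, and smooth muscle with 150, 167, 147 and 182. Macrophages lay 1.81-fold below fibroblasts (adjusted p = 1.92e-07) and 1.72-fold above smooth muscle (adjusted p = 1.34e-06). Fibroblasts lay 3.11-fold above smooth muscle (adjusted p = 1.41e-13).

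Lrp1 had the highest level of the 9 genes in fibroblasts, where it reached 763, 1139, 1136 and 1062 CPM. Macrophages held 143, 226, 271 and 192, smooth muscle 206, 296, 386 and 281, and monocytes 210, 331, 399 and 449. Fibroblasts exceeded macrophages 5.02-fold (adjusted p = 2.94e-09) and smooth muscle 3.65-fold (adjusted p = 2.21e-07) and were higher in 4 of 4 libraries. Between macrophages and smooth muscle the difference missed the threshold (log2 -0.46, 95% interval -0.94 to 0.01, adjusted p = 0.0918), and it passed with a stricter gate (0.0292), with no filter on low counts (0.00277) and in thinned cells (0.000211).

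Of the 8 members that could be tested between macrophages and fibroblasts, 3 were higher in macrophages and 4 lower, where 30.7% of all 10176 genes tested were higher and 37.2% lower. Against smooth muscle, 5 were higher in macrophages and 2 lower (33.6% and 36.5% of all genes). Fibroblasts against smooth muscle gave 5 higher and 2 lower (27.5% and 20.2% of all genes). The median difference of the members was -0.47, 0.76 and 1.15 on the log2 scale in these comparisons, and that of all genes -0.11, -0.05 and 0.07.

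**Figure D2:**
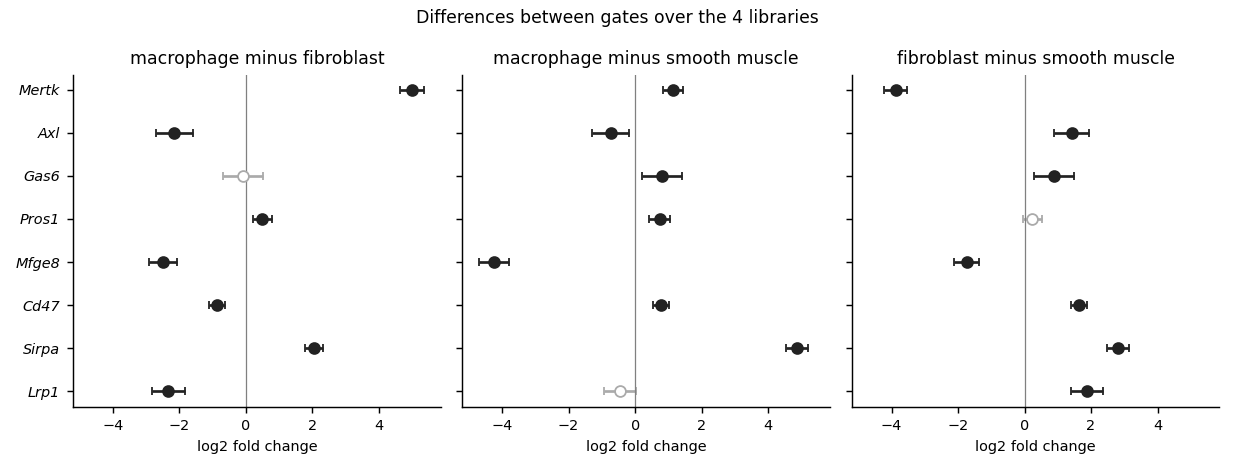
Log2 fold changes between gates (horizontal axes) for the 8 genes tested, from edgeR over the 4 libraries; points are estimates, bars are 95% intervals, filled points have an adjusted p below 0.05 and open grey points do not. Mertk and Sirpa lie to the right in both macrophage comparisons, at 5.00 and 2.05 against fibroblasts, and Mfge8 lies to the left at -2.50 and -4.25.

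The shares of cells with a UMI, after each cell was thinned to 2000 UMIs, gave the same order for the receptors. Mertk was seen in 17.3% of macrophages (exact 95% interval 15.1 to 19.6), 7.81% of smooth muscle cells and 0.579% of fibroblasts, and in 0.15% of T cells (upper bound 0.833%), so the fibroblast share lay within the T cell interval. Axl was seen in 37.0% of fibroblasts, 22.0% of smooth muscle cells, 11.9% of macrophages (10.0 to 13.9) and 1.65% of T cells. Mfge8 was seen in 64.0% of smooth muscle cells and 26.8% of fibroblasts. In macrophages its share was 5.08% (3.87 to 6.54) and in T cells 5.85% (4.19 to 7.91), so the 2 shares overlapped. Gas6 was seen in 60.6% of macrophages, 50.5% of fibroblasts, 48.0% of smooth muscle cells and 3.15% of T cells. Sirpa was seen in 30.3% of macrophages, 7.76% of fibroblasts and 0.45% of T cells. Thinning left out 55 macrophages, 357 fibroblasts, 126 smooth muscle cells and 26 T cells. Before thinning, Mertk was seen in 46.5% of macrophages, 41.4% of smooth muscle cells and 3.51% of fibroblasts, and Axl in 34.0%, 74.1% and 77.7%, at medians of 8756, 15181 and 13048 UMIs per cell. In T cells, at a median of 7195 UMIs, the shares were 0.577% for Mertk and 7.07% for Axl. All intervals cover counting error only.

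Within the macrophage gate the TAM system split along the Lyve1+ resident phenotype. The 731 Lyve1+ cells, defined by Lyve1, Folr2, Cd163, Maf, Cd209f and F13a1, were compared with the 445 other macrophages, 151 cells lying near the limit. The Lox_HFD values rest on 60 Lyve1+ and 20 other cells. Gas6 was 548, 874, 1027 and 792 CPM in Lyve1+ cells of Lox_CTR, KO_CTR, Lox_HFD and KO_HFD and 193, 255, 156 and 209 in the others. The ranges did not overlap, and the difference was 3.38-fold (log2 1.76, SE 0.16, adjusted p = 3.97e-07). Axl went the opposite way, with 34.3, 58.9, 28.9 and 45.1 in Lyve1+ cells and 94.5, 114, 129 and 132 in the others, again apart. It was 2.91-fold lower in Lyve1+ cells (log2 -1.54, SE 0.17, adjusted p = 3.91e-06). In Lox_HFD the Axl values rest on 11 UMIs in Lyve1+ cells and 28 in the others. Pros1 was higher in Lyve1+ cells in 4 of 4 libraries, at 105, 103, 176 and 120 against 52.5, 60.9, 55.1 and 64.5 (1.81-fold, adjusted p = 0.000555). Mertk was higher as well, at 83.0, 116, 192 and 135 against 57.0, 68.5, 87.3 and 76.2 (1.53-fold, adjusted p = 0.00474). In the other macrophages Axl stood above Mertk in 4 of 4 libraries. The Mertk call was lost without KO_HFD (adjusted p = 0.0566) and with no library block (0.0691). So 3 of 8 members were higher and 1 lower, where 8.63% of 7323 genes were higher and 10.1% lower.

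The other members differed less between these macrophages. Sirpa differed by log2 -0.17 (95% interval -0.42 to 0.08, adjusted p = 0.391), Cd47 by -0.21 (-0.47 to 0.05, 0.297) and Mfge8 by -0.06 (-0.51 to 0.39, 0.909). Lrp1 differed by -0.28 (adjusted p = 0.153), and passed the threshold only without Lox_HFD (adjusted p = 0.0407). After thinning, Gas6 was seen in 74.6% of Lyve1+ cells (71.2 to 77.7) and in 35.8% of the others (31.1 to 40.7), and Axl in 7.54% (5.72 to 9.73) and 19.5% (15.8 to 23.7). Among the Leiden clusters, a small macrophage cluster of 83 cells led by Mmp12 and Cd207 held 195 CPM of Axl and 25.1 of Gas6. The main macrophage cluster of 1019 cells, led by Pf4 and C1qa, held 56.0 and 584. These cluster values are descriptions, since the clusters were drawn from the same counts.

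**Figure D3:**
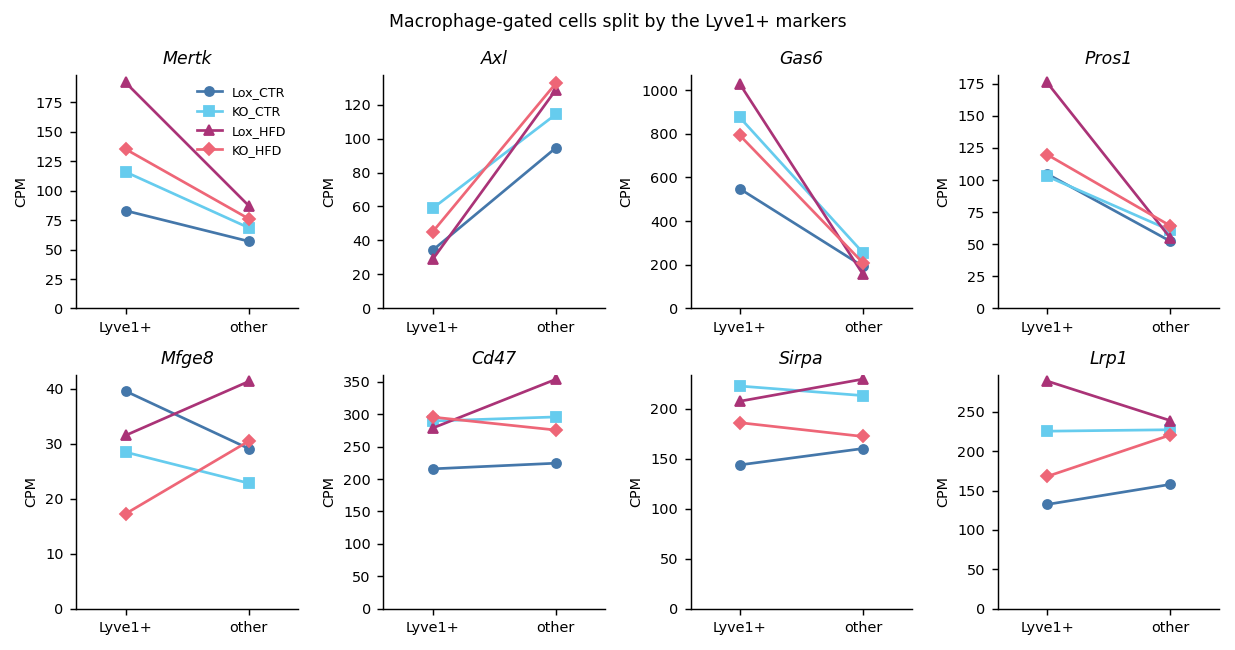
Levels in CPM (vertical axes, from 0) in Lyve1+ and other macrophage-gated cells; each line joins the values of 1 library. All 4 lines fall from Lyve1+ to other cells for Gas6 and Pros1 and for Mertk, and all 4 rise for Axl, from at most 58.9 to at least 94.5.

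Among the 6 fibroblast clusters with at least 10 cells in every library, Axl and Gas6 also ran largely in opposite directions. Cluster 1, led by Smpd3, Igfbp5, Sema3c and Dpp4, held 620 (Lox_CTR), 613 (KO_CTR), 672 (Lox_HFD) and 584 (KO_HFD) CPM of Axl and 54.4, 79.3, 36.2 and 61.2 of Gas6. Cluster 10, led by AI507597, Sfrp2 and Comp, held 130, 141, 119 and 112 of Axl and 1212, 1000.2, 1476 and 1218 of Gas6. The 2 clusters did not overlap in either gene in any library. Among the 6 fibroblast clusters with at least 10 cells in every library, Axl ran from 618 in cluster 1 through 444, 337, 158 and 156 to 129 in cluster 10, and Gas6 from 60.5 through 253, 678, 509 and 994 to 1181. Among these 6, Sirpa was also highest in cluster 1 (83.9) and lowest in cluster 10 (22.4), and Cd47 stood at 735 and 358. Lrp1 ran from 789 to 1063 between these 6 clusters. The fibroblast clusters outside the 6 came mostly from 1 library and did not all follow the opposition. Cluster 6 held 338 CPM of Axl and 399 of Gas6, and cluster 12 held 195 and 490. Cluster 21 was low in both, at 83.8 and 256, and its Sirpa was 19.2. No test was made, since the genes themselves entered the clustering.

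**Figure D4:**
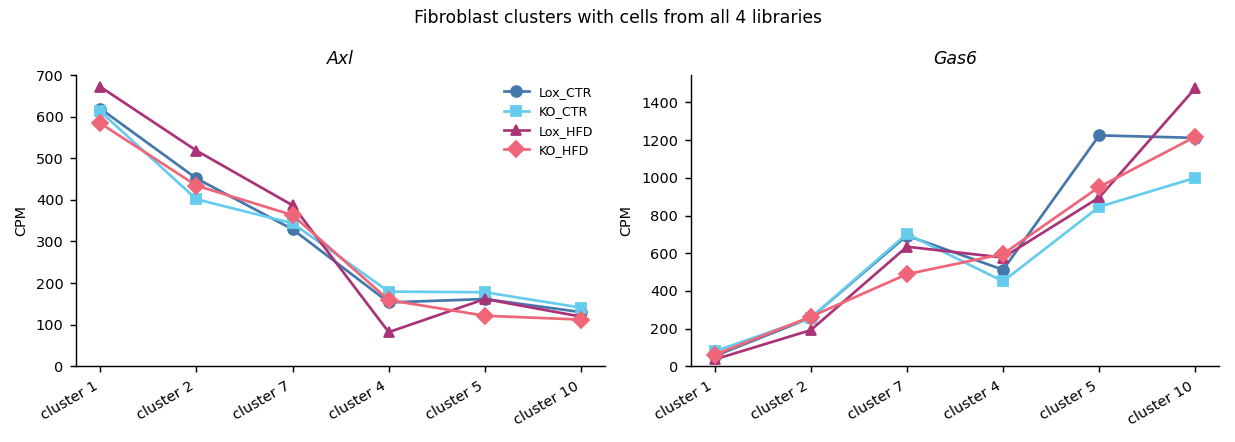
Axl (left) and Gas6 (right) in CPM (vertical axes, from 0) in the 6 fibroblast clusters with at least 10 cells in every library; each line is 1 library. In all 4 libraries Axl is lower in cluster 10 than in cluster 1 and Gas6 is higher, at 1181 against 60.5 over all cells. The clusters between them do not follow in a steady order. In Lox_HFD, Axl is lowest in cluster 4 (82.0), and in Lox_CTR, Gas6 is highest in cluster 5 (1225).

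The genes whose levels ran most like each of the 8 members tested were sought over the 32 sums of 8 gates and 4 libraries (Pearson r of log2(CPM + 10)). Mertk ran with Prune2 (r = 0.935), Tanc2 (0.910) and Cltc (0.876), and Axl with Egfr (0.943), Ank2 (0.928) and Col14a1 (0.915). Gas6 ran with the lysosomal protease gene Ctsf (0.964), Colec12 (0.926) and Fer (0.923), and Pros1 with Gas2l1 (0.945) and Wdfy3 (0.938). Mfge8 ran with Tgfb1i1 (0.969), Rbfox2 (0.958) and Auts2 (0.957), Sirpa with Mfsd1 (0.933), Cebpa (0.925) and Ctsa (0.925), Lrp1 with Fam20c (0.895) and Fkbp2 (0.866), and Cd47 with Myl12b (0.884), Tmsb10 (0.832) and Sri (0.829). Over these sums Axl and Gas6 had r = 0.729, unlike their opposition among the 6 fibroblast clusters. The sums share libraries and cell types, and the values are descriptions.

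The wider efferocytosis pathway was followed with a list of 50 genes, of which 44 could be tested between macrophages and fibroblasts. Of these, 26 were higher in macrophages, 10 lower and 8 did not pass, where 30.7% of all genes were higher and 37.2% lower, the shares against which the counts of its groups are also to be read. Among the other phagocytic receptors 8 of 11 were higher and 3 lower. The largest rises were P2ry12, a nucleotide receptor (log2 7.83, SE 0.34, adjusted p = 6.79e-20), Timd4, a phosphatidylserine receptor (7.57, SE 0.38, adjusted p = 1.45e-14), Cd300lb (7.31) and Cd300a (7.27). Timd4 held 121 ± 15.6 CPM (SD, n = 4) in macrophages and 0.74 ± 0.37 in fibroblasts. The receptors that were lower were the integrin subunits Itgb3 (-2.89), Itgav and Itgb5. The largest falls besides Itgb3 were the engulfment adaptor Gulp1 (-5.07, adjusted p = 8.48e-18), the opsonin Ptx3 (-4.85, adjusted p = 4.67e-14) and Anxa1 (-2.44). Among the other bridging and opsonising molecules 4 of 6 were lower in macrophages and 1, Lgals3, was higher. Of the engulfment genes 7 of 10 were higher, and of the shedding proteases Adam10 and Adam17 were. The median of the 44 genes was 0.78 on the log2 scale, against -0.11 over all genes. Between Lyve1+ and other macrophages 9 of 32 listed genes were higher and 7 lower (8.63% and 10.1% of all genes), with Timd4 at 2.47 and Havcr2 (Tim-3), another phosphatidylserine receptor, at -3.51.

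Between conditions, the levels in the macrophage gate were lowest in Lox_CTR for 7 of the 8 members detected there, Mfge8 being the exception. For Axl the interval of Lox_HFD over Lox_CTR spans 0 (log2 0.14, -0.38 to 0.62). The share of all genes that were lowest in Lox_CTR was not computed, so the count is not read as a result about the members. The median of all genes shifted between these libraries as well, by log2 0.23 for KO_CTR over Lox_CTR, -0.10 for KO_HFD over Lox_HFD, 0.22 for Lox_HFD over Lox_CTR and -0.10 for KO_HFD over KO_CTR, and the ratios are to be read against it. Mertk differed by log2 1.09 between Lox_HFD and Lox_CTR (counting interval 0.75 to 1.42), and by 0.87 after scaling by the median. Lrp1 differed by 0.92 (0.67 to 1.17), Gas6 by 0.83 (0.67 to 0.98) and Pros1 by 0.67 (0.31 to 1.01). In the KO-labelled libraries the same diet ratios were 0.12 (-0.16 to 0.40) for Mertk, -0.24 (-0.44 to -0.04) for Lrp1, -0.33 (-0.44 to -0.21) for Gas6 and 0.10 (-0.20 to 0.39) for Pros1. For Sirpa the diet ratio was 0.52 (0.24 to 0.79) in the Lox and -0.29 (-0.49 to -0.09) in the KO libraries. For Cd47 it was 0.48 (0.25 to 0.70) and -0.03 (-0.19 to 0.14). Of 8 members, 4 were at least 1.5-fold higher in Lox_HFD than in Lox_CTR and 0 lower (29.0% and 13.6% of all genes), and 0 passed in either direction between KO_HFD and KO_CTR (7.18% and 12.6%). After scaling by the median, 3 of the 4 stayed past the fold in the Lox libraries (18.4% of all genes higher and 21.4% lower), with Lrp1 at 0.70, Gas6 at 0.61 and Pros1, which was lost, at 0.45. In the macrophages that were not Lyve1+, Gas6 was lower in Lox_HFD than in Lox_CTR, opposite to the whole gate. Mertk was higher there, at 87.3 (Lox_HFD) against 57.0 CPM (Lox_CTR). These Lox_HFD values rest on 20 cells.

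The genotype ratios in macrophages had opposite signs under the 2 diets for Mertk, Gas6 and Lrp1, with intervals that left out 0 under both. KO_CTR over Lox_CTR was log2 0.47 (0.23 to 0.70) for Mertk, 0.73 (0.64 to 0.83) for Gas6 and 0.66 (0.50 to 0.82) for Lrp1. KO_HFD over Lox_HFD was -0.50 (-0.86 to -0.13), -0.42 (-0.59 to -0.26) and -0.50 (-0.77 to -0.22). Axl kept its sign, at 0.39 (0.12 to 0.65) and 0.37 (-0.14 to 0.92), as did Mfge8, at -0.41 and -0.60, and Pros1 was at 0.09 (-0.15 to 0.33) and -0.48 (-0.86 to -0.08). Sirpa also changed sign, at 0.54 (0.38 to 0.70) and -0.26 (-0.56 to 0.04). So did Cd47, at 0.41 (0.27 to 0.55) and -0.09 (-0.34 to 0.16), and both intervals under HFD span 0. Of 8 members, 2 were at least 1.5-fold higher in KO_CTR and 0 lower (24.0% and 7.97% of all genes). After scaling by the median, Gas6 was at 0.51, Lrp1 at 0.44 and Mertk at 0.24, so that 0 were higher and 1, Mfge8, was lower (12.7% and 14.3% of all genes). In KO_HFD 0 were higher and 1, Mfge8, was lower (11.1% and 17.1%). That ratio rests on 44 (KO_HFD) and 21 (Lox_HFD) UMIs of a gene whose thinned share in macrophages overlapped with that in T cells. Its interval of -1.38 to 0.23 spans 0, and after scaling 0 were lower (12.8% of all genes). Lox_HFD rests on 80 macrophages and the others on 236 to 567. The Lyve1+ share of the macrophages was 59.1% in Lox_CTR, 67.6% in KO_CTR, 75.0% in Lox_HFD and 58.5% in KO_HFD, highest in the 2 libraries that were highest in Gas6. Within Lyve1+ cells alone the Gas6 ratios were 0.67 under CTR and -0.37 under HFD, and in the other macrophages 0.40 (0.16 to 0.65) and 0.42 (-0.12 to 0.99), the last from 20 cells and 34 Gas6 UMIs of Lox_HFD. The Mertk ratios were 0.48 and -0.50 in Lyve1+ cells and 0.27 (-0.22 to 0.73) and -0.20 (-0.95 to 0.62) in the others. The 7 stress genes summed to 9199 CPM in Lox_CTR macrophages and to 12780 to 14883 in the other libraries. The median depth of the macrophages was 9837, 7209, 6197 and 7476 UMIs in Lox_CTR, KO_CTR, Lox_HFD and KO_HFD, the reverse of the order of Gas6, and the median mitochondrial share was 2.14%, 3.42%, 3.23% and 2.43%. The part of these measures in the ratios was not tested.

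In the stroma few members were past the 1.5-fold cut in any comparison, and each count is given beside the share of all genes. Smaller ratios whose intervals leave out 0 are not in these counts. In fibroblasts, 0 of 9 were 1.5-fold higher and 0 lower in KO_CTR than in Lox_CTR (8.05% and 8.64% of all genes), and 0 were higher and 1, Tyro3 from 17 and 15 UMIs, lower in KO_HFD than in Lox_HFD (3.67% and 5.43%). Diet gave 1 higher, Mertk from 33 and 144 UMIs, and 0 lower in the Lox libraries (12.5% and 10.4%), and 1 higher, Mertk again, and 1 lower, Tyro3, in the KO libraries (6.37% and 8.16%). The 10 macrophage markers summed to 109 and 176 CPM in fibroblasts of Lox_CTR and Lox_HFD. In those of KO_CTR and KO_HFD they summed to 157 and 234. Like Mertk, they were higher in HFD within each genotype label. Between genotype labels they were higher under KO in both diets, where Mertk was lower. Mertk stood at 2.33 (KO_CTR) against 2.73 (Lox_CTR) and 3.62 (KO_HFD) against 4.89 (Lox_HFD), with intervals of both ratios that span 0. The thinned share of Mertk in fibroblasts lay within the T cell interval, which rests on 1 cell with a UMI among 667. By level, fibroblasts at 2.33 to 4.89 CPM lay above T cells, which held 0 to 2.20 CPM from 4 UMIs. The part of the markers in the Mertk level was not tested. Lrp1 was low in Lox_CTR in fibroblasts too, with a ratio of log2 0.58 (0.56 to 0.60) for KO_CTR and 0.57 (0.54 to 0.61) for Lox_HFD over it. Both are 1.49-fold, just under the cut. Some fibroblast clusters came almost wholly from 1 library: 413 of 440 cells of a cluster led by Nppa and Meox1 were from KO_CTR, and 161 of 162 and 157 of 159 cells of 2 others from Lox_CTR. Without clusters of this kind, an alternative chosen after seeing the data, the Lrp1 ratio of KO_CTR over Lox_CTR was 0.47 and that of Axl was 7.32e-05 in place of 0.10.

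In smooth muscle, 1 of 9 members, Tyro3, was 1.5-fold higher and 0 lower in KO_CTR than in Lox_CTR (11.6% and 6.19% of all genes). That ratio rests on 35 and 87 UMIs, and its interval of -0.01 to 1.18 spans 0. In KO_HFD against Lox_HFD 0 of 8 were higher and 1, Mertk, was lower (9.1% and 14.0%). Mertk stood at 41.7 and 72.1 CPM there (log2 -0.79, -1.25 to -0.32), from 139 and 56 UMIs. Mertk and Lrp1 were higher in Lox_HFD than in Lox_CTR, by 0.74 (0.33 to 1.13) and 0.91 (0.74 to 1.08), the 2 members past the fold, with 0 lower (24.0% and 12.7%). Lox_HFD rests on 69 smooth muscle cells. A smooth muscle cluster led by Tnnt2 and Actc1 had 278 of 316 cells from Lox_CTR. It held 168 CPM of Lrp1 and 36.5 of Mertk, against 250 and 44.8 in the main cluster of 1722 cells. Without clusters mostly of 1 library, where no share of all genes was computed, 2 members were past the fold. After scaling by the median Mertk was at 0.58 and no longer past it, nor was Tyro3 in KO_CTR. Between KO_HFD and KO_CTR 0 were higher and 1, Tyro3, was lower (6.69% and 9.06%), from 10 and 35 UMIs with an interval of -2.22 to 0.007 that spans 0. Mfge8, the leading member of this gate, had log2 ratios between -0.09 and 0.05 in all 4 comparisons.

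**Figure D5:**
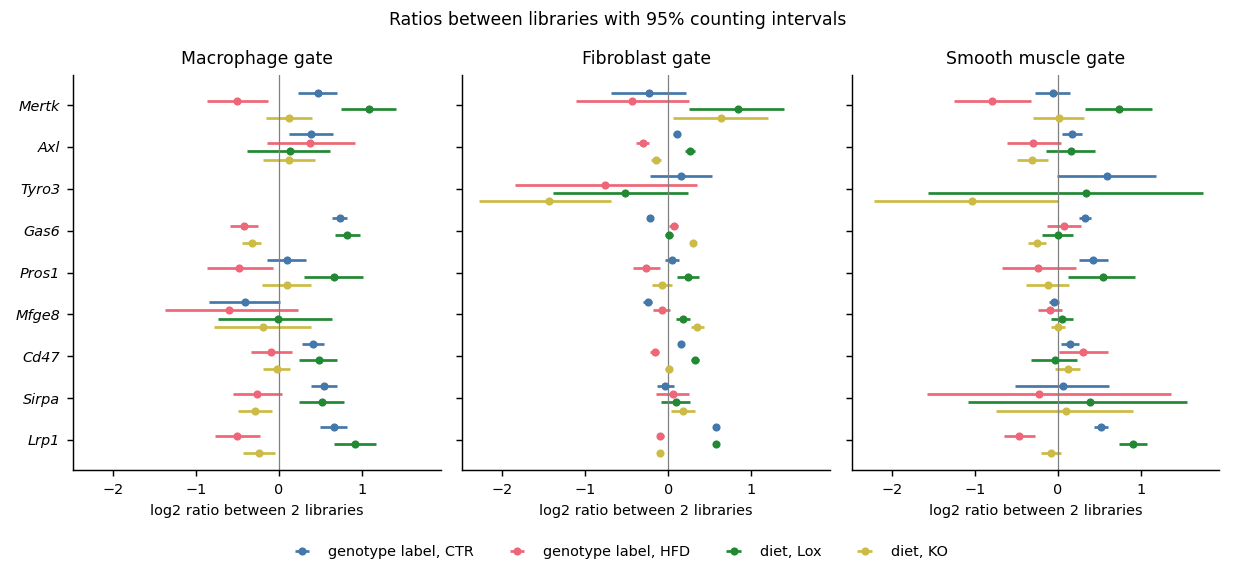
Log2 ratios between pairs of libraries (horizontal axes) for each gene in 3 gates; points are ratios of CPM and bars exact 95% binomial counting intervals, which leave out the spread between mice. In macrophages Mertk, Gas6 and Lrp1 lie to the right for the genotype label under CTR (0.47, 0.73 and 0.66) and to the left under HFD (-0.50, -0.42 and -0.50).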

How the data were processed

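Cells of pooled mouse aortic arches were profiled with droplet 3′ single-cell RNA sequencing, and the authors made the deposited files with Cell Ranger 6.1.2 on mm10. The deposited matrices hold raw counts, UMIs per gene and barcode, in 4 libraries with between 12276546 and 98754487 UMIs. Barcodes were kept if they had from 200 up to 6000 detected genes and a mitochondrial share of no more than 15%. Cells were gated by fixed marker lists: the mean log(1 + UMIs per 10000) of a list was divided by the mean of its 50 highest cells, and a cell passed at 0.5 or more with at least 50% of the markers detected. This scoring rule was set after the data had been seen. Cells that passed gates of several lineages (388) or none (960) were left out. Scrublet called 298 doublets, which were kept except in an alternative.

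UMIs were summed per gate and library, giving 32 sums, and levels are CPM (UMIs of a gene per 1000000 UMIs). Gates were compared over the 4 libraries with edgeR 4.0.16 (TMM, filterByExpr, quasi-likelihood test, library as a block, Benjamini-Hochberg adjustment over all genes, threshold 0.05), tested on simulated data, with DESeq2 1.42.0 as an alternative. The libraries are pools, and each stands for another condition. With library as a block, the p-values measure the spread of the differences between gates over these libraries. They do not measure the spread between mice or between libraries of 1 condition. Ratios between libraries carry exact 95% binomial counting intervals. A ratio counted as past the fold at 1.5 with at least 20 UMIs over both libraries, and 0.5 was added to every count in the ratios over all genes. PCR and capture error, and the spread between mice, are not covered. Alternatives were a stricter gate, no doublets, a 10% mitochondrial limit, thinned cells, Leiden clusters, other scalings, 2-fold calls and leaving out each library.

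The members and gene lists were chosen with earlier results of these data known. All 9 members are named, as are the 4 largest rises and 4 largest falls of the pathway list and the 3 genes most like each of the 8 members tested (Tyro3 was too low), except that 1 gene each for Pros1 and Lrp1, and an agent given to the HFD mice, are not reported here. Promoter windows are from RefSeq (GRCm38.p6) and gene positions from GENCODE M21 (GRCm38, the build called mm10), and 6 of the 9 windows had their transcribed bases in a GENCODE transcript in the printed direction. The windows of Mertk, Axl and Gas6 were not among these, since their RefSeq starts lie upstream of the GENCODE genes.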

Additional observations from a re-analysis of the deposited data

Results flagged for a closer look

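For 8 gene and gate pairs the counting intervals of the genotype ratio lay on opposite sides of 0 under the 2 diets. The change of the log2 ratio from CTR to HFD was -0.97 for Mertk, -1.16 for Gas6 and -1.16 for Lrp1 in macrophages (-0.9686, -1.1554 and -1.1607). It was -0.41 for Axl, 0.29 for Gas6, -0.32 for Cd47 and -0.68 for Lrp1 in fibroblasts (-0.4107, 0.2867, -0.319 and -0.6764), and -0.99 for Lrp1 in smooth muscle (-0.9874). The difference was not tested, since each condition is 1 library of pooled mice. The share of all genes that turned in this way was not computed, so the count is not read as a result about the members. The median ratio of all genes also had opposite signs. It was 0.23 under CTR and -0.10 under HFD in macrophages, 0.05 and -0.05 in fibroblasts, and 0.10 and -0.09 in smooth muscle. Without clusters mostly of 1 library, the Axl ratio of fibroblasts under CTR was nearly 0. Lrp1 was lowest in Lox_CTR in all 3 gates, at 143 CPM in macrophages, 763 in fibroblasts and 206 in smooth muscle. In the macrophages that were not Lyve1+, the Gas6 ratios were 0.40 (counting interval 0.16 to 0.65) and 0.42 (-0.12 to 0.99), the second from 20 cells of Lox_HFD, so that its sign is not set.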

How the results depend on the processing

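Over all alternatives, 349 values of members between gates kept their direction and their side of the threshold, 16 lost the call, 4 gained it and 6 turned. The values that turned were those of Gas6 between macrophages and fibroblasts, at 0.10 in thinned cells and 0.10 with Leiden clusters and from -0.15 to 0.0736 when leaving out 1 library, of Cd47 between Lyve1+ and other macrophages in thinned cells (0.13), and of Mfge8 there when leaving out 1 library (-0.40 to 0.16). None of the 3 had passed the threshold. Of the ratios between libraries, 723 values stayed within their counting interval and 59 moved out of it with no called ratio turning. The sign differed in 44 values, 41 of them of ratios whose own interval spans 0. The other 3 were all in macrophages that were not Lyve1+: Gas6 at 0.42 and Pros1 at 0.23 for the genotype label under HFD, and Gas6 at -0.30 for diet in the Lox libraries.

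The number of genes called moved by over 1.5 times in several settings, higher before lower. Thinned cells gave 1468 and 1683 between macrophages and fibroblasts, 1561 and 1543 between macrophages and smooth muscle, 1278 and 805 between fibroblasts and smooth muscle, and 262 and 327 between Lyve1+ and other macrophages, with fewer genes left to test. With no filter on low counts 6070 and 5742 genes were lower in macrophages than in fibroblasts and smooth muscle. With no library block 271 and 273 genes differed between Lyve1+ and other macrophages, and leaving out 1 library gave 331 to 708 and 435 to 864. For fibroblasts over smooth muscle it gave 1854 to 2732 higher.

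When called at 2-fold, the members past the fold in macrophages fell to 0 higher for the genotype label under CTR, 0 lower under HFD and 1 higher for diet in the Lox libraries. In fibroblasts they fell to 0 lower for the genotype label under HFD and 0 higher for either diet ratio, and in smooth muscle to 0 higher under CTR, 0 lower under HFD and 0 higher for diet in the Lox libraries. The count of members past 1.5-fold also moved with other settings. With the median scaling it was 0 higher and 1 lower for the genotype label under CTR in macrophages (12.7% and 14.3% of all genes). Under HFD it was 0 lower there (12.8%). In Lox fibroblasts it was 1 lower for diet (11.9%). In smooth muscle it was 0 higher under CTR (8.6%) and 1 higher for diet in the Lox libraries (16.9%). Within macrophages, Lyve1+ cells gave 4 higher under CTR, 1 higher and 2 lower under HFD and 1 lower for diet in the KO libraries, the others 0 higher under CTR and 0 lower under HFD, and a 10% mitochondrial limit 0 and Leiden clusters 2 lower under HFD. In fibroblasts, means over cells gave 1 higher under CTR, 0 lower under HFD and 2 higher and 1 lower for diet in the Lox libraries, and Leiden clusters 1 higher under CTR and 2 (Lox) and 0 (KO) higher for diet. In smooth muscle, means over cells gave 1 higher and 2 lower under HFD and 4 (Lox) and 1 (KO) higher for diet, and 0 were higher under CTR without doublets, with Leiden clusters or without clusters mostly of 1 library. Apart from the median scaling, the share of all genes past the fold was not computed under these settings or at 2-fold. Those counts cannot be set against the shift of all genes and are not read as results about the members. The cause of the changes was not tested. No paired analysis between conditions was possible because each condition has 1 library and the labels give no replicate numbers. Gates were compared within libraries through the library block. The depth limits the macrophage values of Lox_HFD, which rest on 80 cells, and of Tyro3.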

Other observations

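Macrophages of a cavity type, gated by Lyz1, Retnla, Fn1, Ear2 and Lpl and numbering 179 cells, held little of the Mertk and Gas6 pair. Mertk was 10.1 CPM in Lox_CTR, 4.81 in KO_CTR, 9.28 in Lox_HFD and 16.8 in KO_HFD, and Gas6 was 14.9, 9.62, 9.28 and 14.9. Both lay below every macrophage-gated library. Their Axl was 39.4, 77.0, 55.7 and 37.2, which overlapped with the macrophage range, and their Pros1 was 60.0, 72.2, 41.8 and 57.7. Cd47 was higher than in macrophage-gated cells in each library, at 362, 433, 413 and 406 CPM. The KO_CTR and Lox_HFD values rest on 11 and 8 cells, and no test was made.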
